A study of Strongylocentrotus purpuratus with 9 samples.

Results

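The highest-scoring enhancer RNA (eRNA) peaks of the *S. purpuratus* embryo are 921 of the 18076 peaks in the v3.1 list (5.10%). They were chosen by their score, the single value that the list gives for each peak, as those at or above the 95th percentile, which is a score of 44. The samples were whole embryos of the purple sea urchin, raised at 15 °C from the gametes of adult animals and taken at 9 stages, every 6 h from 0 to 48 h post-fertilization (hpf), with 1 library per stage from 2 cultures. The labels name no treatment or genotype and do not say which stage came from which culture. The assay was CAGE-seq, the sequencing of capped 5′ ends (cap analysis of gene expression), and the peaks of all libraries stand in 1 list. A peak therefore carries no value per stage or culture. Whole embryos were used, so that a peak cannot be assigned to a cell type. Stages were not compared, no spread between replicates can be given, and no test was made. Values for the highest-scoring and the 17155 remaining peaks are set side by side as descriptions of this list.

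Enhancers are stretches of DNA that bind transcription factors and raise the transcription of genes that may lie far away. Active enhancers are often transcribed themselves, usually in both directions and into short, capped and unstable RNAs. In CAGE-seq an enhancer appears as start sites on both strands that point away from each other, with a span between them. The width of a peak is here the length of its interval in the list, and a wide peak is not the same as a strong one. The sources used here do not define the score, and a score is not taken here as a count of molecules. Because the score chose these peaks, their scores are a description and not a finding.

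The 921 peaks had scores between 44 and 58394 (median 175, quartiles 66 and 1878). The remaining peaks had scores from 2 to 43, with a median of 3. A score of exactly 44 was shared by 22 peaks just inside the threshold, with widths from 57 to 1233 bp and a median of 498 bp. Just outside, 14 peaks had a score of 43, with widths from 330 to 872 bp and a median of 493.5 bp. The next peaks inside were 21 with a score of 45, and the next outside were 23 with a score of 42. The threshold therefore fell within a run of closely spaced scores.

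The scores of the highest-scoring peaks did not fall off evenly. In steps of equal ratio from 44 upwards, 4 to each factor of 10, the number of peaks dropped from 297 to 127, 73, 52 and 50. It then rose again to 54, 73 and 79, the last of these for scores from 2474 to 4400, before it fell to 61, 37 and 16, with 1 peak in each of the last steps. By factors of 10, 364 peaks had scores from 44 to 99, 259 had scores from 100 to 999, another 259 had scores from 1000 to 9999, and 39 had a score of 10000 or more. These score ranges are used below. They are round numbers, chosen after the scores had been seen.

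**Figure D1:**
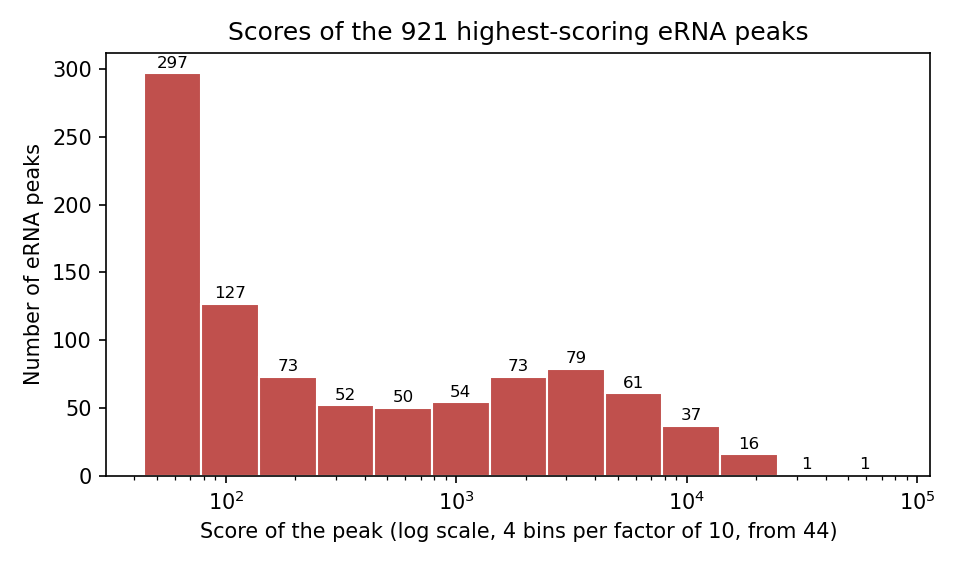
Number of the 921 highest-scoring eRNA peaks (vertical axis) by score (horizontal axis, log scale), in steps of equal ratio that start at the threshold of 44. The bars fall from 297 peaks to 50 and rise to a second, lower top of 79 peaks for scores from 2474 to 4400.

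The 921 peaks held 94.6% of the summed score of the list, 1654293 of 1749612, while they made up 8.60% of the summed width of all peaks. The 39 peaks with a score of 10000 or more held 34.4%, the 259 peaks from 1000 to 9999 held 53.9%, the 259 peaks from 100 to 999 held 4.98% and the 364 peaks from 44 to 99 held 1.29%. Peaks with a score of 1000 or more, 298 in number and 1.65% of the list, thus held 88.3% of the summed score. The highest 74 peaks were enough for 50% of it and the highest 335 for 90%. The 8027 peaks with the lowest score of 2 held 0.918%.

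**Figure D2:**
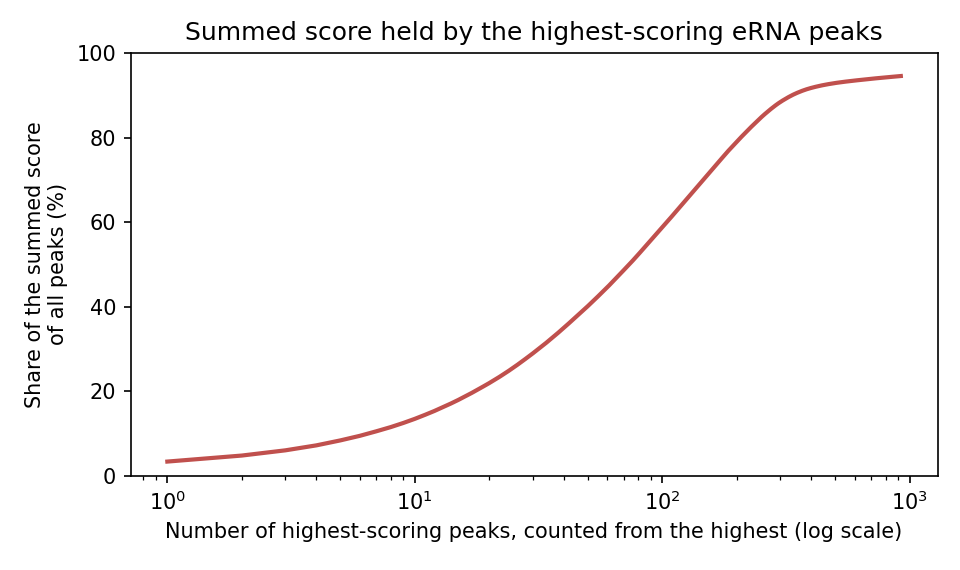
Share of the summed score of all 18076 eRNA peaks (vertical axis, percent) held by the highest-scoring peaks, counted from the highest downwards (horizontal axis, log scale). The line reaches 13.4% at 10 peaks, 58.7% at 100 peaks and 94.6% at 921 peaks.

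The highest score of the embryo, 58394, belonged to a peak of 659 bp on Scaffold830 at 37990–38648 (all positions v3.1, counted from 1). It held 3.34% of the summed score of the list. Its nearest neighbour lay 17650 bp away and had a score of 3. No other peak lay within 10 kb, and no other highest-scoring peak lay on the scaffold.

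Of the next peaks, that on Scaffold302 at 110442–110964 scored 24943 and spanned 523 bp, with a peak of score 4 at a distance of 1661 bp. The peak on Scaffold427 at 536915–537137 was narrower, with 223 bp, and had a score of 21604. The peak on Scaffold241 at 485917–486628, 712 bp wide, had a score of 20533, and its nearest neighbour, with a score of 3, lay 16877 bp away. On Scaffold522 the peak at 297904–298547 was 644 bp wide, and its score was 20524. Another highest-scoring peak lay 10304 bp from it, the shortest such distance among the 10 highest.

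Scaffold561 carried a peak of score 19017 and 329 bp at 162567–162895. The peak on Scaffold2386 at 35030–35678 was 649 bp wide and scored 18869, with a peak of the lowest score 559 bp away. On Scaffold16 the peak at 146935–147336, with a score of 17308 and 402 bp, had the closest neighbour of the 10, a peak of score 39 at a distance of 15 bp. The widest of the 10 lay on Scaffold513 at 421575–422684, with 1110 bp and a score of 17218. The last, on Scaffold5083 at 6955–7331, scored 16780, spanned 377 bp and was the sole peak of its scaffold. The 10 peaks lay on 10 different v3.1 scaffolds and held 13.4% of the summed score. Of the 9 that shared a scaffold with another peak, none had a nearest neighbour with a score above 39. Over all peaks of the list with a neighbour, the nearest one was a highest-scoring peak for 4.99%.

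In the authors' v5.0 list, in which the peaks were lifted to a later assembly with fewer and longer scaffolds, each of these 10 peaks had an interval of its own, between 225 and 1109 bp wide. The peaks from Scaffold2386 and Scaffold513 fell on the same v5.0 scaffold, 75.8 kb apart, with 3 peaks between them, of which the highest had a score of 57. The peaks from Scaffold830 and Scaffold302 also shared a v5.0 scaffold but lay 25593 kb apart, with 408 peaks between them.

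The highest-scoring peaks were wider than the rest of the list. Their median width was 473 bp (quartiles 367 and 654 bp) against 303 bp (quartiles 200 and 383 bp), a difference of 170 bp. The mean was 527 ± 251 bp (SD over 921 peaks) against 301 ± 148 bp (SD over 17155 peaks). Of the highest-scoring peaks, 427 (46.4%) were 500 bp or wider and 23 (2.50%) were 150 bp or narrower. Among the remaining peaks these shares were 7.13% and 15.6%. Of all 1651 peaks of 500 bp or more, 25.9% were highest-scoring peaks. The widest measured 1915 bp and lay on Scaffold3279 at 3661–5575, with a score of 69. The narrowest, 12 bp on Scaffold14954 at 302–313, had a score of 46 and was alone on its scaffold.

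Width did not follow the score among the highest-scoring peaks themselves. Median widths were 464.5, 460, 490 and 523 bp for scores from 44 to 99, from 100 to 999, from 1000 to 9999 and of 10000 or more, and the quartiles of the 4 ranges overlapped. Below the threshold the median rose from 265 bp at the lowest score to 316 bp for scores from 3 to 9 and 400 bp for scores from 10 to 43. Across the 18076 peaks the Spearman rank correlation of score and width was 0.39, and across the 921 highest-scoring peaks it was 0.01. Peaks share libraries and were drawn from the same tags, and they are not independent replicates. Width and score come from the same reads, and what part the number of reads has in the width of a peak was not tested.

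**Figure D3:**
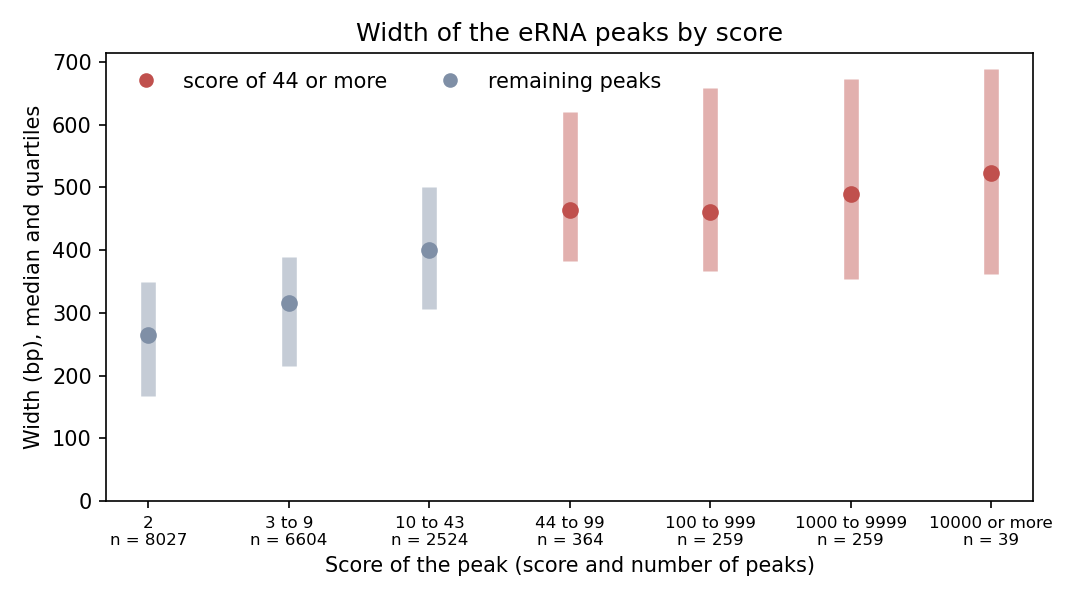
Width of the eRNA peaks in bp (vertical axis) by score (horizontal axis, with the number of peaks), where points are medians and bars run from the lower to the upper quartile. Medians climb from 265 to 400 bp below the threshold and lie between 460 and 523 bp in the 4 score ranges above it.

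The highest-scoring peaks were spread over 639 of the 2922 scaffolds that carried any peak (21.9%). They were the sole such peak on 463 scaffolds, and the other 458 lay on 176 scaffolds that carried 2 to 7 of them. Of the 994 scaffolds with a single peak, 59 had a highest-scoring one, a share of 5.94%. On scaffolds with 2 to 4, 5 to 9, 10 to 19 and 20 or more peaks, 5.58%, 5.19%, 4.48% and 5.24% of the peaks were highest-scoring ones. The share thus stayed near the 5.10% of the whole list on scaffolds with few and with many peaks.

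Scaffold281 carried the most highest-scoring peaks, 7 of its 37. The peak at 145243–145641 had the highest score of the scaffold, 6175, and was 399 bp wide, and that at 6129–6501 scored 4122 and was 373 bp wide. These peaks lay 138741 bp apart, and the neighbours nearest to them had scores of 3 and 2. The other 5 had scores between 57 and 79 and widths between 522 and 769 bp. Of these, the peaks at 396749–397307 and 397631–398152 were 323 bp apart, with scores of 79 and 73, and a peak of score 68 followed at 401353–402121. That group had up to 9 other peaks within 10 kb of a single peak. The remaining ones, at 443397–444058 and 575313–575940, had scores of 57 and 65. The peaks of scores 4122 and 6175 had 0 and 3 other peaks within 10 kb, and the other 5 had between 3 and 9.

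**Figure D4:**
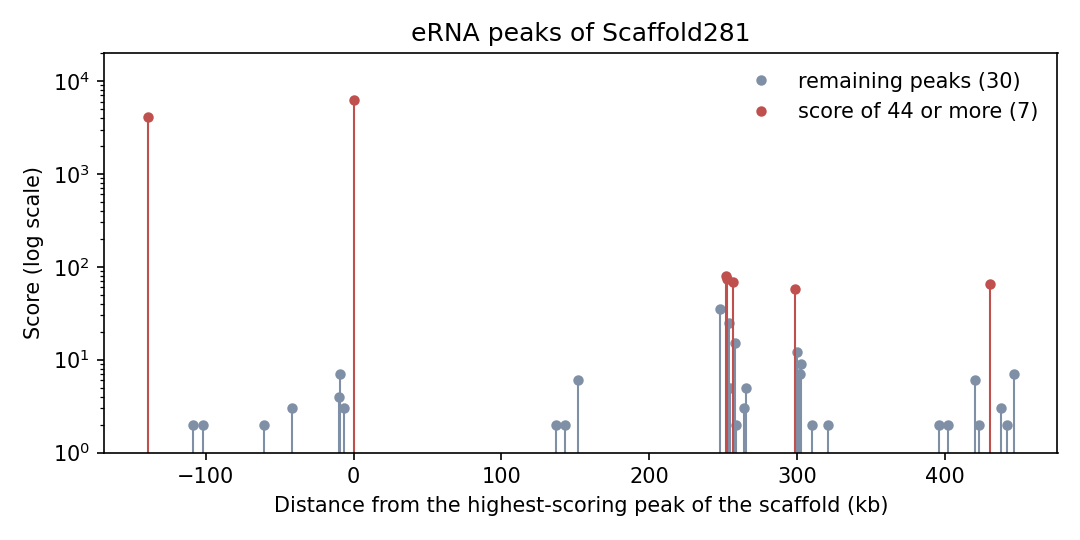
Score (vertical axis, log scale) of the 37 eRNA peaks of Scaffold281 by distance in kb from the highest-scoring one (horizontal axis). The 7 peaks with a score of 44 or more include those of scores 4122 and 6175, 138741 bp apart, and 3 of scores 68 to 79 that lie in one group of peaks.

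Over the whole list, the spacing of peaks turned with the score. The distance from the edge of a peak to the edge of the nearest other peak could be measured for 862 highest-scoring peaks, the other 59 being alone on their scaffold. For scores from 44 to 99 the median distance was 2546.5 bp (quartiles 736.5 and 7658 bp), the shortest of the 7 score ranges compared. It was 5480 bp for scores from 100 to 999, 12212 bp for scores from 1000 to 9999 and 16045 bp for scores of 10000 or more. Below the threshold the medians ran the other way, with 6917 bp at the lowest score, 5356 bp for scores from 3 to 9 and 3039 bp for scores from 10 to 43. Distances varied widely within each range, and the quartiles of neighbouring ranges overlapped.

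**Figure D5:**
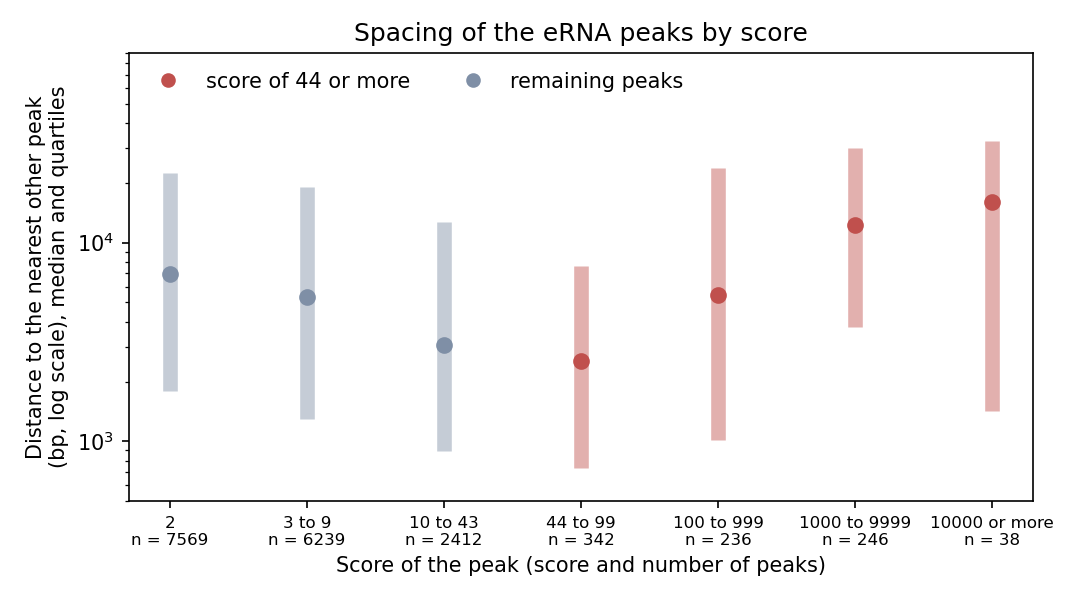
Distance in bp from each eRNA peak to the nearest other peak (vertical axis, log scale) by score (horizontal axis, with the number of peaks that share a scaffold with another), where points are medians and bars run from the lower to the upper quartile. The medians fall to 2546.5 bp for scores from 44 to 99 and rise to 16045 bp for scores of 10000 or more.

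As one set, the highest-scoring peaks lay between these ranges. Their median distance to the nearest other peak was 4755 bp (quartiles 951.5 and 21183 bp) against 5607 bp (quartiles 1425 and 19745 bp) for the remaining peaks, a ratio of 0.848. This ratio was 1.06 when peaks of the lowest score were left out of the rest and 1.004 in the v5.0 list, so that no direction is given for the set as a whole. With scores of 1000 or more the median was 12279 bp, and with scores from 44 to 999 it was 3054.5 bp, a ratio of 4.02. In the v5.0 list, whose peaks stood on 107 scaffolds in place of 2922, the medians for these ranges were 14817 and 4455 bp, against 7372.5 bp for the other peaks.

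Neighbours were also fewer at the highest scores. Of the 298 peaks with a score of 1000 or more, 172 (57.7%) had no other peak within 10 kb and 1 (0.336%) had 5 or more. Of the 623 peaks with scores from 44 to 999, 216 (34.7%) had none and 85 (13.6%) had 5 or more. That range was not uniform, with 26.4% and 17.0% for scores from 44 to 99 and 46.3% and 8.88% for scores from 100 to 999. Among the remaining peaks of the list these shares were 41.8% and 6.79%. At scores from 10 to 43, just below the threshold, they were 31.9% and 11.5%. Peaks alone on their scaffold count here as having none. Without them, 44.4% of peaks with scores of 1000 or more had a neighbour within 10 kb. For scores from 44 to 999 it was 70.4%, and for the remaining peaks 61.5%. The mean number of other peaks within 10 kb was 2.33 ± 2.39 (SD over 364 peaks) for scores from 44 to 99 and 0.574 ± 0.814 (SD over 298 peaks) for scores of 1000 or more, against 1.37 ± 1.77 (SD over 17155 peaks) in the rest. The highest-scoring peak with the longest stretch to a neighbour lay on Scaffold179 at 35475–35689, with a score of 264 and the next peak 337427 bp away.

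The peaks next to the highest-scoring ones mostly had low scores, as did those next to the remaining peaks, which were somewhat lower still. The nearest neighbour of a highest-scoring peak had a median score of 4 (quartiles 2 and 12). It was a peak of the lowest score for 309 of 862 (35.8%). For the remaining peaks the median was 3 (quartiles 2 and 7) and the share was 43.9%. A neighbour within 1 kb was found for 222 of the highest-scoring peaks (25.8%) and for 19.7% of the remaining peaks. The higher share did not hold across the set. It was 30.3% for highest-scoring peaks with scores under 1000, but 16.5%, below the remaining peaks, for those of 1000 or more. Remaining peaks with scores from 10 to 43 had a share of 27.4%, above that of the highest-scoring peaks as one set. For scores of 1000 or more the nearest neighbour had a median score of 3, the same median as in the rest of the list. Its upper quartile was 10 against 7, and it had the lowest score for 39.4% against 43.9%.

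The nearest neighbour was itself a highest-scoring peak for 90 of 862 (10.4%), and for 762 of the 16220 remaining peaks with a neighbour (4.70%), a difference of 5.74 percentage points. With the 99th percentile as threshold, which the neighbour also had to reach, the difference was 0.217 percentage points. With the neighbours defined as before, it was 5.51 percentage points for peaks with a score of 1000 or more. The share was 10.2% for scores from 44 to 99, 11.0% for scores from 100 to 999 and 11.8% for scores from 1000 to 9999, and none of the 38 peaks with a score of 10000 or more and a neighbour had one. The 458 highest-scoring peaks that shared a scaffold with another lay a median of 53193 bp from it (quartiles 9115 and 200400 bp). The 7672 remaining peaks on scaffolds that carried a highest-scoring peak lay a median of 103792 bp from one. Among the 458 the median was 32114 bp for scores from 44 to 999, shorter than in the rest. For scores of 1000 or more it was 120016 bp, longer than in the rest. The scaffold sets differ here, since a highest-scoring peak alone of its kind on a scaffold has no such distance.

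Some highest-scoring peaks lay close to one another. When highest-scoring peaks within 5 kb were joined, 86 of the 921 fell into 39 groups of at least 2, of which 32 were pairs. Other peaks between them were ignored in this step, and no such share was worked out for the remaining peaks. With 10 kb, 119 fell into 54 groups, and the largest, on Scaffold422 at 128538–139489, held 4 peaks with scores from 44 to 241. Scaffold15 held a group of 3 within 2299 bp, at 991028–993326, with scores from 59 to 291. Scaffold1954, with 6 highest-scoring peaks among 44, held 2 groups of 3, and its highest score was 112.

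The closest pairs joined unequal scores in most cases. On Scaffold301 a peak of score 107 at 535330–536007 and a peak of score 6112 at 536014–536444 were 6 bp apart, a ratio of 57.1. Pairs on Scaffold85 and Scaffold787, with gaps of 24 and 29 bp, had scores of 61 and 6241 and of 60 and 2805. On Scaffold18 a gap of 98 bp parted scores of 3152 and 83. The pair on Scaffold88, 9 bp apart, had scores of 163 and 49, and that on Scaffold602, 148 bp apart, had nearly equal scores of 154 and 143. In 4 of these 6 pairs, those closer than 200 bp, a peak with a score above 1000 adjoined one with a score of at most 107. Whether such neighbours are separate enhancers was not tested, and their scores were not compared with those of pairs farther apart.

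In the v5.0 list, 883 of the 921 highest-scoring peaks (95.9%) were found by name, against 96.5% of the remaining peaks. None of the 921 was divided into several intervals by the lift-over, while 155 of the remaining peaks (0.904%) were. More of them shared an interval with another peak of the v3.1 list, 69 (7.49%) against 304 (1.77%). For scores from 100 to 999 the share was 13.1%, for scores from 44 to 99 it was 5.49%, and for scores of 1000 or more 5.03%. In 25 intervals of v5.0 at least 2 highest-scoring peaks were joined, 51 peaks in all, so that the 883 peaks stood in 857 intervals. In 16 of the 25 they came from different v3.1 scaffolds and in 9 from the same one.

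Scores of the peaks joined in v5.0 had a median ratio of the higher to the next of 2.09 and a range from 1 to 121. In 10 of the 25 intervals the ratio lay within a factor of 2. These ratios were not compared with those of other pairs of highest-scoring peaks. The largest ratio was that of a peak of score 10183 on Scaffold658, joined with one of score 84 on Scaffold24513. In one interval 3 peaks, from Scaffold849, Scaffold756 and Scaffold109, were joined, with scores of 86, 86 and 75. Peaks of scores 243 and 238, from Scaffold491 and Scaffold80, were also nearly equal. Whether joined peaks are copies of one stretch and are counted more than once among the 921 was not tested, as no genome sequence was used here.

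On Scaffold8, the v3.1 scaffold of *Sp-kirrelL*, whose product is needed for the fusion of skeleton-forming cells, 1 of 27 peaks was a highest-scoring one. It spanned 897 bp at 1451195–1452091, scored 123 and had 4 other peaks within 10 kb. Its distance from *Sp-kirrelL* was not measured. In the whole v3.1 list, 5.10% of peaks were highest-scoring ones. The v5.0 scaffold that holds the gene carried 36 highest-scoring peaks among 861 intervals (4.18%), against 4.93% in the whole v5.0 list.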

How the data were processed

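Whole embryos of 9 stages, 1 library each, were profiled by CAGE-seq. Per the text of the series, each library gave over 100000000 reads, of which 60000000 to 80000000 mapped uniquely to the v3.1 assembly with BWA. Reads of mapping quality under 20 were realigned with HISAT2, and versions are not given in the sources used here. Start sites were clustered with DPI without decomposition, clusters with 2 or more tags were kept, and divergent pairs were taken as eRNA peaks with the FANTOM5 program. The authors deposited 1 list for all libraries, with positions and a whole-number score per peak, and the same list lifted to v5.0. The score is defined in none of the sources, and the depth behind a peak is unknown, so that no interval or floor is given.

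Peaks with a score at or above the 95th percentile were compared with the rest in width, distance (bases between the edges of neighbouring peaks) and position. Medians and shares of the nearest distance leave out peaks alone on their scaffold, while counts of neighbours within 10 kb include them as having none. The peaks described singly are the 10 highest, those next to the threshold, the extremes of width and spacing, and those of the scaffold with the most. The groups, closest pairs and joined v5.0 intervals that are named besides were chosen after their values were seen. Peaks were matched to v5.0 by name, and joint names were taken apart. No test was made, since libraries are pooled and peaks are not replicates. The peaks and comparisons were chosen with earlier results of these data known. Distances were tested on simulated data (seed 7). The alternatives concerned the percentile, assembly, distance and scaffolds. A planned comparison with gene starts was not run, since 33490 of 33503 genes in the RefSeq table at hand (Spur_5.0) carry no scaffold. Sequences were not used here. Python 3.11.15, numpy 2.4.6, pandas 2.3.3, scipy 1.17.1 and matplotlib 3.10.9 were used.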

Additional observations from a re-analysis of the deposited data

How the results depend on the processing

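The alternatives were set after earlier results of these data were known, and the split at a score of 1000 was added after seeing the values. A value is given below when it left the 95% binomial (order-statistic or exact) interval of the reported value or changed direction. The interval takes peaks, or units of score, as independent and is used here only to sort values. The share of the summed score, 94.6% as reported, was 96.0% with the 90th percentile, 76.2% with the 99th percentile and 93.7% without the 10 highest-scoring peaks. The difference in median width of 170 bp fell to 151 bp with the 90th percentile and to 135 bp with the lowest score left out of the rest, and kept its direction in all 7 alternatives. The ratio of the median distances to the nearest other peak, 0.848 as reported, was 0.637 with the 90th percentile and 0.545 for scores under 1000. It turned to 2.14 with the 99th percentile, 2.19 for scores of 1000 or more, 1.06 with the lowest score left out of the rest and 1.004 in the v5.0 list, of which the last 2 lay within the interval. The excess of highest-scoring nearest neighbours, 5.74 percentage points, was 0.217 with the 99th percentile, which the neighbour also had to reach. The difference in the share found in v5.0, -0.623 percentage points, was 0.194 with the 90th percentile (within the interval), 0.780 with the 99th percentile and -7.54 when the width had to be the same. For this last value, peaks that shared a v5.0 interval or were divided counted as not found. Among peaks with 1 interval of their own, 58.8% of the highest-scoring and 63.5% of the remaining peaks kept their width. The cause of the shifts under these alternatives was not tested. The other 14 of 29 alternatives kept their direction and stayed within those intervals. No paired analysis was possible because the list pools the libraries, and for the same reason no library could be left out. What depth limits cannot be said, since the reads behind each peak are not given.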

Other observations

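The v5.0 list placed peaks on 107 scaffolds, of which 21 carried 482 or more peaks each and no other carried more than 61. These 21 scaffolds held 786 of the 857 intervals with a highest-scoring peak (91.7%) and 92.5% of all intervals. On them the share of intervals with a highest-scoring peak ran from 3.24% (18 of 556) to 7.10% (60 of 845), with a median of 4.65%. The scaffold with the lowest share was the one that carried the highest score of the embryo, 58394, and also the next score, 24943. On the remaining scaffolds the share was 5.43% (71 of 1307). These are values of one pooled list, and no test of the difference between scaffolds was made.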
